A study of Mus musculus with 18 samples.

Results

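The fibroblast growth factor (FGF) genes of a motor neuron differentiation were followed here by RNA-seq. The set held 36 of the 27179 genes counted: 15 canonical ligands, 3 hormone-like ligands, 4 intracellular FGF homologous factors, 5 receptors, 7 feedback inhibitors and 2 ETS transcription factors. Members were found by matching the Entrez identifier of each gene to its mouse symbol, and all 36 were found. They were listed by name and not by a cutoff on measured values, but with earlier results of these data known.

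RNA was taken from 18 libraries of mouse embryonic stem cell (ESC) derivatives, 3 in each of 6 groups. All cells were Ainv15 ESCs grown as embryoid bodies and patterned with 1 µM retinoic acid (RA) and 0.5 µM SAG, an agonist of Hedgehog signaling, so these agents were shared by every group. Day 2 progenitors came from the Ainv15(iCre) line after 2 days of RA and SAG, without doxycycline (Dox). iHoxc6, iHoxc8, iHoxc9 and iHoxc10 neurons came from 4 isogenic lines, each carrying 1 Dox-inducible Hox gene with an N-terminal Flag tag. They received 3 µg/ml Dox from day 2 for 48 h and were collected on day 4. Control neurons were the iFlag.Hoxc6 line collected on day 4 without Dox. Each Hox gene was thus represented by 1 line, and only iHoxc6 had control neurons of its own line.

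FGF ligands bind receptor tyrosine kinases at the cell surface together with heparan sulfate, and the signal runs through RAS and the MAP kinases ERK1 and ERK2 to ETS transcription factors. Sprouty, Spred and Dusp6 proteins are made in response to the pathway or restrain it. Transcripts of Dusp6 and of Sprouty genes are widely used as readouts of FGF activity. In the embryonic spinal cord, FGFs from the caudal neural tube and mesoderm hold cells in a progenitor state, oppose RA and help to set posterior Hox expression. The intracellular homologous factors share the FGF fold but act on voltage-gated sodium channels and the cytoskeleton rather than as secreted ligands.

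Promoters of 4 members are given first, so that the later values can be read beside the DNA upstream of each gene. Fgf10 had the largest rise in any induced line, Dusp6 and Etv1 were each called in more than 1 line, and Spry2 was called in iHoxc9 against both control and iHoxc10. RefSeq promoters of GRCm38.p6, from 250 bases before to 50 bases after the annotated start, were held for 28 of the 36 genes (37 promoters). Each was searched on both strands for 3 short motifs. TTTAT, which reads ATAAA on the other strand, is a posterior Hox core. TAAT, which reads ATTA on the other strand, is a central and anterior Hox core. CCGGAA, which reads TTCCGG on the other strand, is an ETS core. Capitals mark the matches, which may overlap or touch. All sequences run 5′ to 3′ in the direction of the gene. They are Fgf10 at chr13:118714449-118714748 (plus strand), Dusp6 at chr10:99262981-99263280 (plus strand), Etv1 at chr12:38779832-38780131 and at chr12:38783461-38783760 (both plus strand), and Spry2 at chr14:105896770-105897069 (minus strand).
Fgf10: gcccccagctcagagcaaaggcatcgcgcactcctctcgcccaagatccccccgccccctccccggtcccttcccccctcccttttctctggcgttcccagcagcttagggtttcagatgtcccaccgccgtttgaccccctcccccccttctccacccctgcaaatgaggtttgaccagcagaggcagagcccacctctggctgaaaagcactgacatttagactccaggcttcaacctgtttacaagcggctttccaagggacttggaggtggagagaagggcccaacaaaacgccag
Dusp6: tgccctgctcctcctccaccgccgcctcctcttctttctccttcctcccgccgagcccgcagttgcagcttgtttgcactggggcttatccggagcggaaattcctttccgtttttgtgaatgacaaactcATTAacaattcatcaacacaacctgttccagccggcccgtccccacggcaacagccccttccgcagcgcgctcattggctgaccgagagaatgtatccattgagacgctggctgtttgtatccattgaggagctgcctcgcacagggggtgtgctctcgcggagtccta
Etv1, first start: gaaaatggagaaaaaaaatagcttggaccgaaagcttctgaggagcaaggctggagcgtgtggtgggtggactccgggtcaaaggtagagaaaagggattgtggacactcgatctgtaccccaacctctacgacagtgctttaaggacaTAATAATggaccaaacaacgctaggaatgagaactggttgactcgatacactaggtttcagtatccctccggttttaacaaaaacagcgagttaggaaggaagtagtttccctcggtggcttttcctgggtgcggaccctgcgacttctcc
Etv1, second start: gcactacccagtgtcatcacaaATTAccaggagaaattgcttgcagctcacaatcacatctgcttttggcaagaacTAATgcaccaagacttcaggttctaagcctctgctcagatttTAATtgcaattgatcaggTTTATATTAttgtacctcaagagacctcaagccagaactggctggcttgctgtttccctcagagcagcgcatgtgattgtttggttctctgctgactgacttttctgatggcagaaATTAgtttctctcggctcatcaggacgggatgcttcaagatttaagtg
Spry2: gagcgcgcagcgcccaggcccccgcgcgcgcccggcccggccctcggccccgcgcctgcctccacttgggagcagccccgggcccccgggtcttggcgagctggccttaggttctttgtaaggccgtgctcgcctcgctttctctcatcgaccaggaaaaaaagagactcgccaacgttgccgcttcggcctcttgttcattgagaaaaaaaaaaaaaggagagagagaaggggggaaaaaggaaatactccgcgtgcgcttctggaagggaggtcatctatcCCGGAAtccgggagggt

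The Fgf10 promoter held no match to any of the 3 motifs. The Dusp6 promoter held 1 TAAT match, the first Etv1 promoter held 2, and the second Etv1 promoter held 5 together with 1 TTTAT match. The Spry2 promoter held 1 CCGGAA match. TTTAT was found in 11 of the 37 member promoters (29.7%) and in 40.0% of the 32851 promoters of all genes. TAAT was found in 15 of 37 (40.5%) against 58.0%, and CCGGAA in 5 of 37 (13.5%) against 14.9%. These counts describe letters in a short window and say nothing of whether a factor bound there.

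Total counts per library lay between 24498630 and 33168533. Levels are CPM (counts scaled to a shared library size with edgeR's TMM factors) and given as mean ± SD over 3 libraries. The level that 3 counts represent lay between 0.0883 and 0.1215 CPM, which takes account of counting error alone. The Dox-induced genes were high where the labels place them, for example Hoxc9 at 213 to 236 CPM in iHoxc9 neurons and Hoxc10 at 425 to 433 CPM in iHoxc10 neurons. Hoxc6 also stood at 43.15 to 49.41 CPM in iHoxc10 neurons, against 1.797 to 5.172 CPM in control and 1.956 to 2.325 CPM in iHoxc9. The paper too reports some Hoxa6 and Hoxc6 expression after Hoxc10 induction, so iHoxc10 neurons were not high in Hoxc10 alone. Markers matched the labels in that 6 neuronal genes summed to 4851 to 5335 CPM in control neurons and to 274 to 549 CPM on day 2, and that none of 4 pluripotency genes reached 1 CPM in any day 4 group. One control library stood apart: 8 neural progenitor markers summed to 711 CPM in control replicate 2 against 380 and 328 CPM in replicates 1 and 3, and 4 cell cycle genes to 743 against 448 and 338 CPM. One day 2 library, replicate 2, gave 5.76% of its counts to a single gene, against at most 2.02% elsewhere. Other libraries differed from their group too. The 4 floor plate markers summed to 362 CPM in day 2 replicate 3 against 138 and 171 CPM in replicates 1 and 2. In iHoxc8 replicate 2, Spred1 stood at 27.9 CPM against 39.2 and 39.8 CPM in replicates 1 and 3.

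The libraries came from 4 sequencing runs. Control and iHoxc6 neurons shared a run, iHoxc9 and iHoxc10 neurons shared another, and the remaining groups, iHoxc8 neurons and day 2 progenitors, were sequenced separately. Only iHoxc6 against control and iHoxc9 against iHoxc10 were compared within a run. Elsewhere the effect of the Hox gene (or of the day) cannot be told apart from those of line and run. iHoxc9 and iHoxc10 neurons are also different lines, so between them Hox gene and line cannot be told apart. Every induced line received Dox and control neurons did not. In each comparison of an induced line with control, iHoxc6 included, Dox itself thus cannot be told apart from the Hox gene. These are bulk samples, so fewer cells of a type and less RNA per cell cannot be told apart either. All 18 libraries entered 1 edgeR fit, from which quasi-likelihood tests gave adjusted p-values (Benjamini-Hochberg) over the 20944 genes that had a read in any iHox library. A gene was called at an adjusted p under 0.01. Fold changes are on the log2 scale with their standard errors (SE). Of the 36 members, 32 were tested. The 4 untested genes, Fgf2, Fgf4, Fgf6 and Fgf20, had no count in any iHox library. Between 19 (day 2) and 22 (iHoxc9) of the 36 members reached a mean of 1 CPM in a group, and the other 4 groups each had 20.

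Most FGF genes differed between the time points. Between day 2 progenitors and control neurons, 5 feedback inhibitors, both ETS factors, Fgfr3, 3 of 4 homologous factors and the ligands Fgf5, Fgf9 and Fgf18 were higher on day 4, while Fgf15, Fgf10, Fgfr2, Fgfr4 and Spred1 were lower. In all, 19 of 32 tested members (59.4%) were called, 14 higher and 5 lower, where 42.4% of all genes were called (21.2% higher and 21.2% lower). The median log2 fold change was 1.25 over the tested members and 0.00 over all genes. At the additional threshold of an absolute log2 fold change above 2, 10 members and 12.6% of all genes were called. The summed level of the 6 motor neuron markers was 19.0 to 44.9 CPM on day 2 and 543 to 569 CPM in control neurons, and that of the 4 cell cycle genes was 1357 to 1675 CPM and 338 to 743 CPM. No marker of either list was at 0 in either group. Their part in these changes was not tested.

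Among the ligands, Fgf15, the mouse counterpart of human FGF19 and a hormone-like FGF that is also made in neural progenitors, fell the furthest. It stood at 7.01, 4.19 and 8.84 CPM in the 3 day 2 libraries and at 0.321, 0.308 and 0.225 CPM in control. The groups did not overlap, and Fgf15 was the single hormone-like ligand above the 3-count level in any group. Its log2 fold change was -4.53 (SE 0.40, adjusted p = 2.73e-09), or 23.1-fold. Fgf10, a ligand best known from limb and lung buds, stood at 1.55, 1.23 and 0.750 CPM on day 2 and at 0.193, 0.385 and 0.299 CPM in control (log2 fold change -2.01, SE 0.37, adjusted p = 8.68e-05). Exons of Fgf15 and of Fgf10 overlap antisense transcripts (Gm26793 and Gm16263), and the strand setting of the counting was not given in the sources used here, so reads could be shared.

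Fgf9 and Fgf18, both secreted ligands active in the nervous system, moved the other way. Fgf9 stood at 0.707, 0.899 and 0.656 CPM on day 2 and at 3.66, 3.39 and 3.03 CPM in control, with no overlap (log2 fold change 2.15, SE 0.23, adjusted p = 4.69e-08). Fgf18 rose from 1.86 ± 0.566 to 6.43 ± 1.43 CPM (1.79, SE 0.22, adjusted p = 3.57e-07) and was the highest of the canonical ligands by CPM per kilobase of exon in control neurons. Fgf5 went from 0.436 ± 0.103 to 0.983 ± 0.365 CPM (1.17, SE 0.36, adjusted p = 0.0091). That call was not kept without control replicate 1 (adjusted p = 0.0657) or replicate 3 (0.0309), or without day 2 replicate 1 (0.0119), replicate 2 (0.0481) or replicate 3 (0.0179). It was also not kept by DESeq2's test (0.0133), with DESeq2's size factors (0.011), in the fit of these 2 groups alone (0.0453) or with the replicate block (0.0125), 9 of 12 alternatives in all.

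The homologous factors, whose products bind sodium channels in neurons, were higher in control neurons than on day 2 in 3 of 4 cases. Fgf13, which was the highest of the 4 per kilobase of exon, stood at 3.91, 4.96 and 3.56 CPM on day 2 and at 29.9, 24.2 and 21.3 CPM in control (log2 fold change 2.60, SE 0.16, adjusted p = 3.29e-12). Fgf11 stood at 0.472, 0.300 and 0.187 CPM and then at 3.08, 1.85 and 2.32 CPM (2.92, SE 0.33, adjusted p = 1.18e-07). Fgf12 rose from 1.41 to 3.80 CPM (1.44, SE 0.27, adjusted p = 8.77e-05). Fgf14 was not called, at 1.26 ± 0.280 and 1.07 ± 0.591 CPM (-0.22, SE 0.35, adjusted p = 0.661). Summed over the 4 genes, the level went from 7.14 ± 1.56 to 32.4 ± 5.90 CPM.

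**Figure D1:**
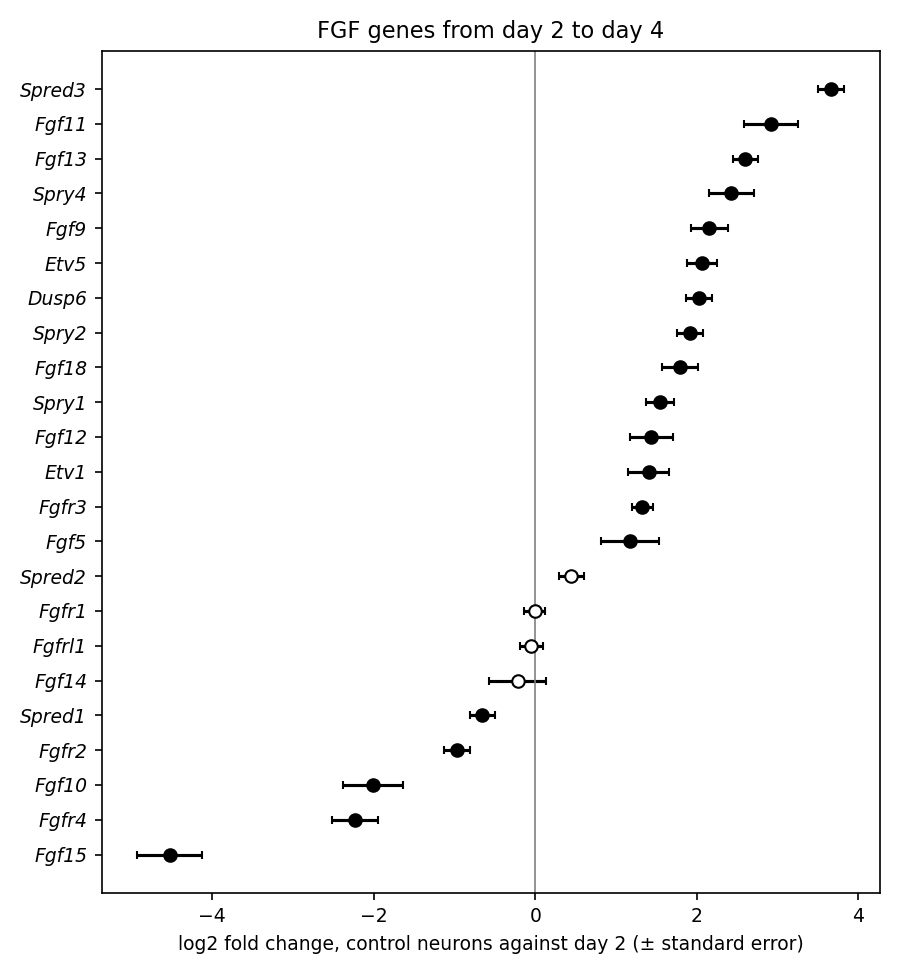
Log2 fold change of control neurons (day 4) against day 2 progenitors for the 23 members with a mean of at least 1 CPM in some group, with bars of 1 SE. Filled points are the 19 members called at an adjusted p under 0.01. Spred3 is farthest to the right at 3.66 and Fgf15 farthest to the left at -4.53.

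Of the 5 receptors, 1 rose and 2 fell. Summed over the 5 genes, the level was 277 ± 21.9 CPM on day 2 and 277 ± 34.5 CPM in control. Fgfr3 rose from 39.0 to 97.4 CPM (log2 fold change 1.32, SE 0.13, adjusted p = 1.34e-08), while Fgfr2 fell from 95.3 to 48.9 CPM (-0.96, SE 0.16, adjusted p = 2.39e-05). Fgfr4 stood at 10.2, 10.5 and 18.9 CPM on day 2 and at 1.80, 4.70 and 1.95 CPM in control, without overlap (-2.23, SE 0.28, adjusted p = 5.88e-07). The highest control value was that of replicate 2, the library with more progenitor and cell cycle RNA. Without it the log2 fold change was -2.81 (adjusted p = 5.13e-09). Fgfr1 and Fgfrl1, a receptor without a kinase domain, were not called (-0.01, SE 0.13, and -0.05, SE 0.14).

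Per kilobase of exon, the order of the receptor levels on day 2 was Fgfrl1 (14.5 CPM per kb), Fgfr2 (9.23), Fgfr1 (9.09), Fgfr3 (5.44) and Fgfr4 (3.72). In control neurons it was Fgfrl1 (14.0), Fgfr3 (13.6), Fgfr1 (9.03), Fgfr2 (4.73) and Fgfr4 (0.795). Neighbors in these orders whose libraries overlapped were Fgfr2 with Fgfr1 and Fgfr3 with Fgfr4 on day 2, and Fgfrl1 with Fgfr3 in control. Exons of Fgfr3 and Fgfr1 overlap antisense transcripts and those of Fgfr2 overlap Ctbp2 on the same strand, so these levels can hold shared reads.

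**Figure D2:**
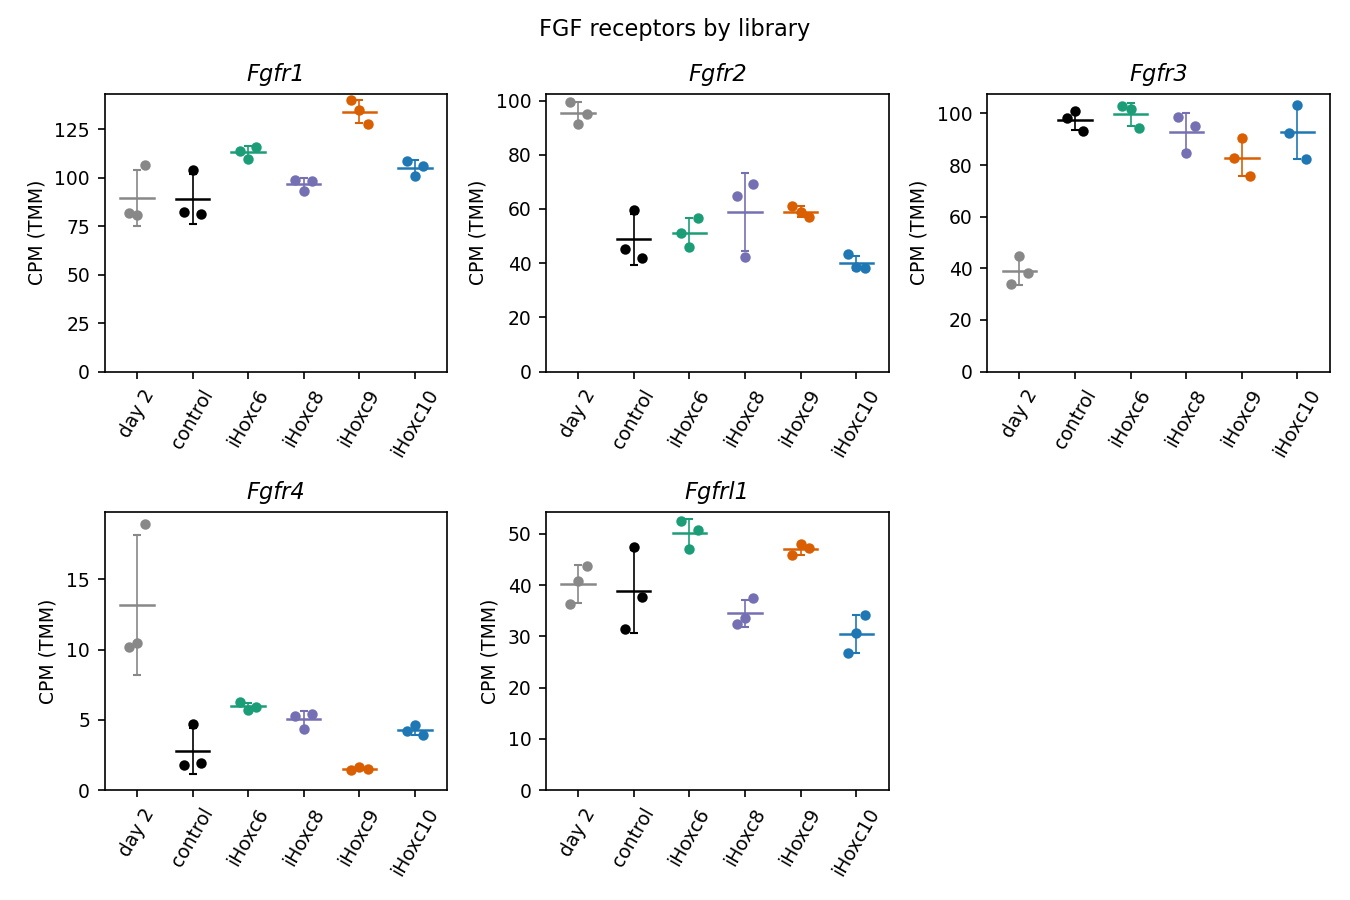
CPM (TMM) of the 5 FGF receptor genes in every library. Points are libraries, horizontal lines are group means and bars are 1 SD over 3 libraries. Fgfr3 lies near 39.0 CPM on day 2 and near 97.4 CPM in control, Fgfr4 is highest on day 2, and Fgfr1 has its highest mean, 134 CPM, in iHoxc9 neurons.

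Of the 7 feedback inhibitors, 5 rose and 1 fell, and their summed level went from 75.5 ± 2.43 to 165 ± 9.29 CPM. Spred3, a Sprouty-related inhibitor of RAS to ERK signaling, stood at 4.11, 5.32 and 3.40 CPM on day 2 and at 56.2, 51.6 and 54.8 CPM in control (log2 fold change 3.66, SE 0.16, adjusted p = 3.87e-14). Its exons overlap those of Ggn on the other strand. Dusp6, a phosphatase of ERK and a widely used readout of FGF signaling, stood at 7.65, 12.9 and 9.96 CPM and then at 37.6, 45.2 and 41.7 CPM (2.03, SE 0.17, adjusted p = 6.62e-10). Neither gene overlapped between the groups. The Sprouty gene Spry4 stood at 0.606, 0.699 and 0.562 CPM on day 2 and at 2.57, 4.31 and 3.22 CPM in control (2.42, SE 0.28, adjusted p = 1.51e-07). Spry1 rose from 2.39 to 6.97 CPM (1.54, SE 0.17) and Spry2 from 3.13 to 11.8 CPM (1.91, SE 0.16). Spred1 fell from 37.8 to 23.98 CPM (-0.66, SE 0.15, adjusted p = 0.00095), and the Spred1 call was not kept when only these 2 groups were fitted (adjusted p = 0.0224). Spred2 was not called (0.44, SE 0.15, adjusted p = 0.0189), except without control replicate 3 (0.00562).

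The ETS factors Etv1 and Etv5, transcription factors whose genes are switched on by FGF signaling in many embryonic tissues, were both higher in control neurons. Etv5 stood at 3.27, 3.66 and 4.12 CPM on day 2 and at 12.9, 21.3 and 12.1 CPM in control, its highest value again in replicate 2 (log2 fold change 2.06, SE 0.19, adjusted p = 3.78e-09). Without that library the log2 fold change of Etv5 was 1.76 (adjusted p = 2.53e-09). Etv1 rose from 1.52 ± 0.589 to 4.01 ± 1.44 CPM (1.40, SE 0.26, adjusted p = 7.56e-05), a call that was not kept in the fit of these 2 groups alone (0.0113). All 19 calls between day 2 and control held without control replicate 2, and 18 held without day 2 replicate 2, Fgf5 being the exception.

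Among the induced lines, iHoxc9 neurons departed from control in the most FGF genes. Fgf10, Fgf14, Fgfr1, Spry2, Spred1 and Etv1 were higher, and Fgf9, Fgf15 and Dusp6 were lower. This was 9 of 32 tested members (28.1%), 6 higher and 3 lower, where 14.1% of all genes were called (6.95% higher and 7.13% lower). At the additional fold threshold 2 members, Fgf10 and Fgf15, and 2.7% of all genes were called. Fgf15 passed it by a fitted fold change against libraries of 0 or 1 read, and its reads themselves bound the fold at 2.63, which does not reach that threshold. Without iHoxc9 replicate 1 the count of called members was 5. In iHoxc10 neurons, 3 members (9.38%) were called, Fgf13 and Etv1 higher and Dusp6 lower, a smaller share than the 14.4% of all genes (6.67% higher and 7.75% lower). None passed the fold threshold, which 1.48% of all genes did. The median log2 fold change of the members was 0.03 in both lines and that of all genes was 0.00.

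In iHoxc8 neurons only Etv1 was called (1 of 32, 3.12%, higher), where 2.12% of all genes were called (1.03% higher, 1.09% lower, and 0.22% past the fold threshold). Without control replicate 2 there were 4 calls, and without iHoxc8 replicate 2 there were 2. In iHoxc6 neurons edgeR called 0 of 32 members, where it called 0.587% of all genes (0.363% higher, 0.224% lower, and 0.115% past the fold threshold). There, 10 members had an unadjusted p under 0.05, and DESeq2's Wald test called 2 (Fgf9 and Fgf13, both lower). Without control replicate 2 edgeR called 2 others (Fgfr4 and Etv5, both higher). Between iHoxc9 and iHoxc10, the comparison within a run, 6 members (18.8%) differed and 4.99% of all genes did. Fgf10, Fgfrl1 and Spry2 were higher in iHoxc9 (2.6% of all genes) and Fgfr4, Spry1 and Dusp6 were lower (2.4%). With the replicate block the count was 5. It was 3 without iHoxc9 replicate 1 or replicate 2, 2 without iHoxc9 replicate 3, and 4 or 5 without 1 of the iHoxc10 libraries. Only Fgf10 passed the fold threshold, as did 1.31% of all genes. The 4 lines share the control libraries, so their comparisons with control are not independent of each other.

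**Figure D3:**
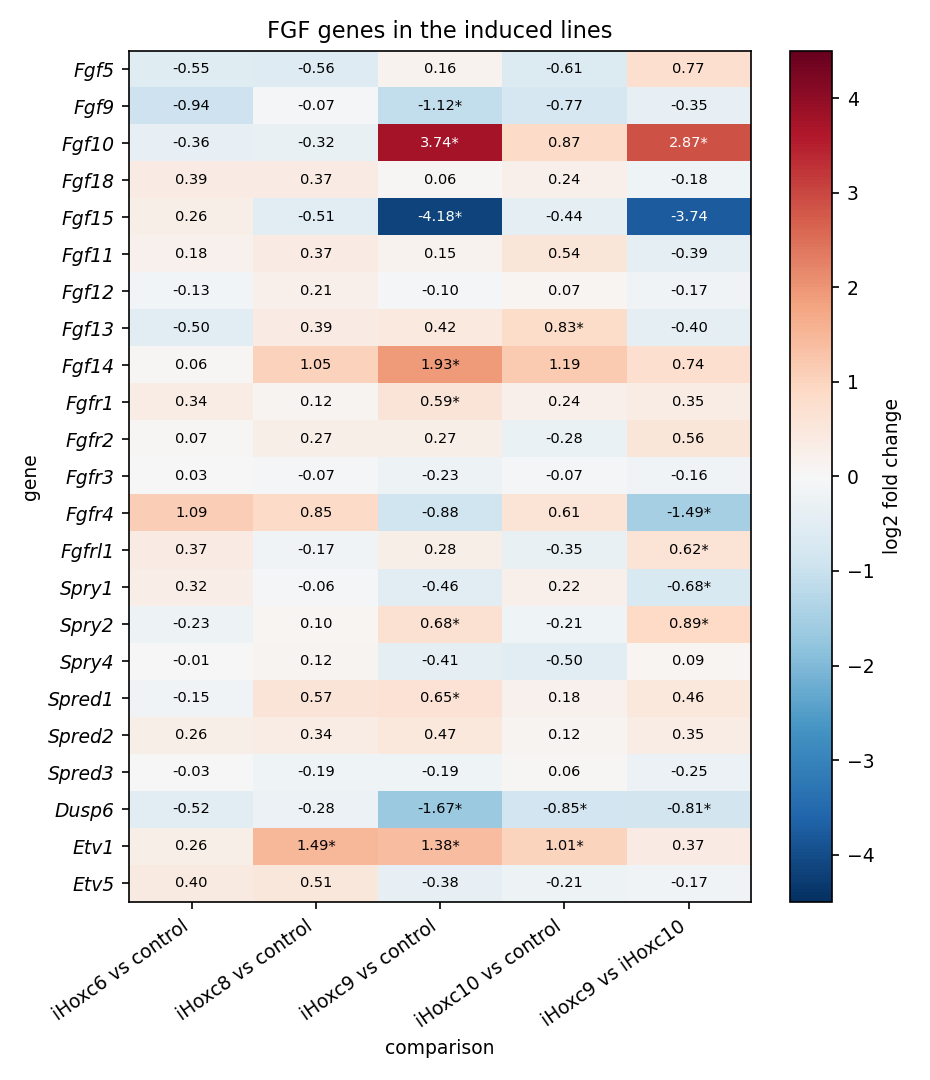
Log2 fold change of 23 members in the 4 induced lines against control and in iHoxc9 against iHoxc10. An asterisk marks an adjusted p under 0.01. Fgf10 is strongly positive in iHoxc9 (3.74 against control). The fitted values of Fgf15 in both iHoxc9 columns rest on 0 or 1 read per iHoxc9 library and are not sizes of effect. Dusp6 is negative and marked in iHoxc9 (-1.67) and iHoxc10.

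Fgf10 showed the largest rise. It stood at 4.19, 3.38 and 4.14 CPM in iHoxc9 neurons, from 107, 115 and 104 reads, and at 0.193, 0.385 and 0.299 CPM in control neurons, from 6, 10 and 8 reads. iHoxc10 neurons gave 0.700, 0.358 and 0.527 CPM, iHoxc6 neurons 0.314, 0.187 and 0.174 CPM, and iHoxc8 neurons 0.148, 0.200 and 0.344 CPM. All 3 iHoxc9 libraries lay above every other library, day 2 included. Fgf10 was 13.3-fold higher than in control (log2 fold change 3.74, SE 0.35, adjusted p = 6.47e-08) and 7.31-fold higher than in iHoxc10 (2.87, SE 0.33, adjusted p = 2.22e-06). In iHoxc10 against control it was not called (0.87, adjusted p = 0.138). The gene lies at chr13:118714699-118792573 (plus strand), and reads could be shared with the antisense Gm16263 where their exons overlap.

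Markers of spinal interneurons moved in the same line. The 6 genes of that list summed to 30.9 to 39.6 CPM in iHoxc9, 3 of 6 at 1 CPM or more, to 3.93 to 5.17 CPM in control, 1 of 6, and to 8.18 to 13.4 CPM in iHoxc10, 3 of 6. The 6 motor neuron markers summed to 296 to 322 CPM in iHoxc9, 543 to 569 CPM in control and 483 to 545 CPM in iHoxc10. No marker of either list was at 0 in these groups. Their part in the FGF results of iHoxc9 was not tested.

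Fgf9 was lower in iHoxc9 neurons, at 1.88, 1.59 and 1.15 CPM against 3.66, 3.39 and 3.03 CPM in control, without overlap (log2 fold change -1.12, SE 0.22, adjusted p = 0.00059). iHoxc6 neurons gave 1.88, 1.65 and 1.74 CPM and iHoxc10 neurons 2.28, 1.97 and 1.66 CPM, also below every control library, but neither passed the threshold (-0.94, adjusted p = 0.0214, and -0.77, adjusted p = 0.0103). DESeq2's test called Fgf9 lower in both lines (adjusted p = 0.000953 in iHoxc6 and 0.00357 in iHoxc10). In iHoxc10 it was also called with the stricter filter (0.00659), without a filter (0.00872) and with the replicate block (0.00605). In iHoxc8 neurons Fgf9 was at 3.37, 3.24 and 3.00 CPM, which overlapped control (-0.07, adjusted p = 0.907).

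Fgf15 had 0, 1 and 0 reads in the iHoxc9 libraries and 10, 8 and 6 reads in control. Set against 3 counts per library, it was at least 2.63-fold lower (adjusted p = 0.0022). Without iHoxc9 replicate 1 or replicate 3 the Fgf15 call was not kept (adjusted p = 0.0122 and 0.0106). Fgf15 read counts in the other lines were 8, 16 and 7 in iHoxc6, 7, 10 and 2 in iHoxc8, and 3, 9 and 5 in iHoxc10. The difference of iHoxc9 from iHoxc10 did not pass (adjusted p = 0.0179). Fgf18 was not called in any induced line, with means of 6.71 to 8.38 CPM, and neither was Fgf5, with means of 0.649 to 1.10 CPM.

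**Figure D4:**
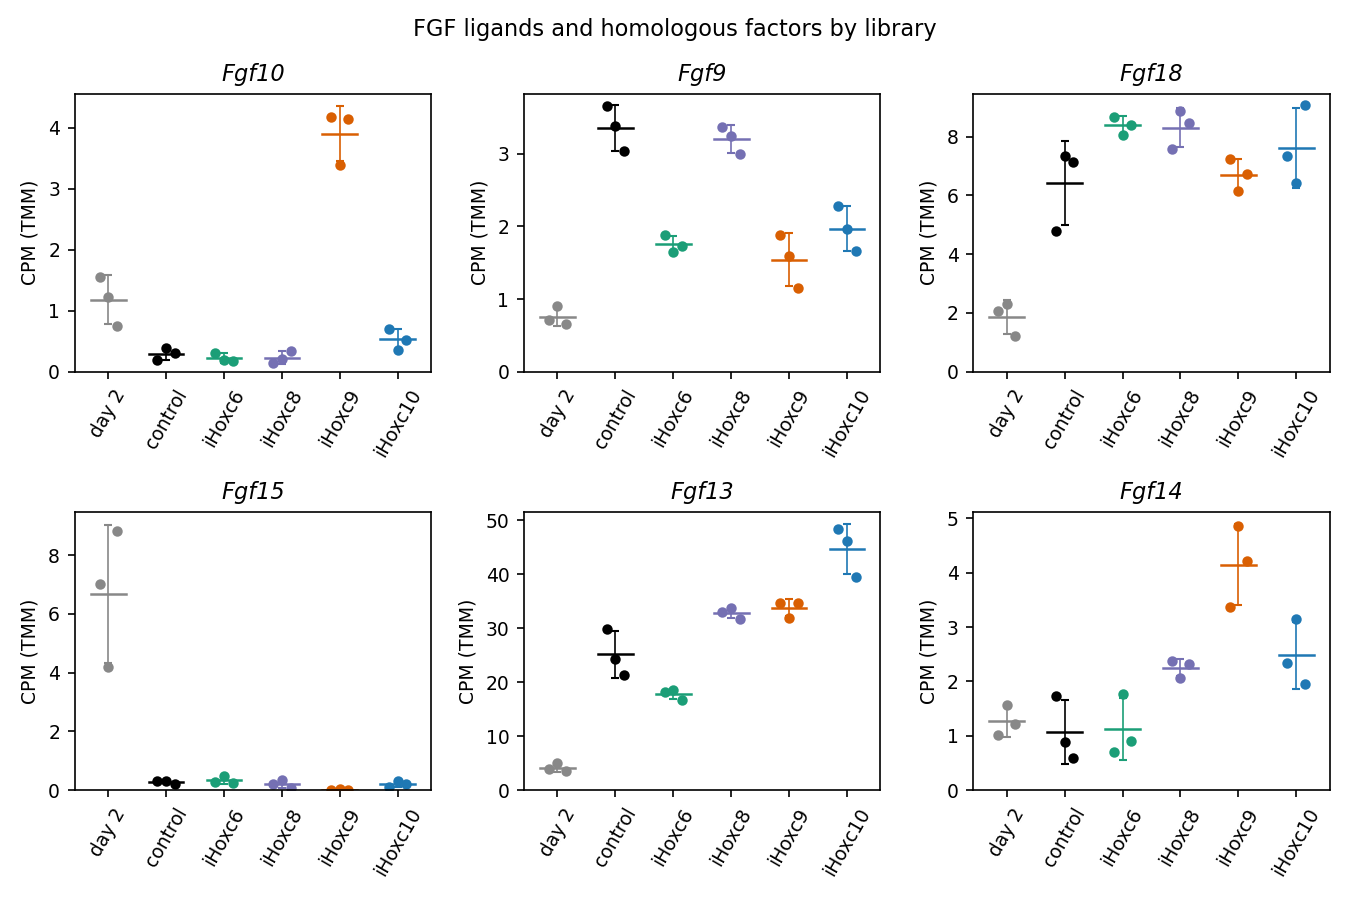
CPM (TMM) of 4 FGF ligands and 2 homologous factors in every library. Points are libraries, horizontal lines are group means and bars are 1 SD over 3 libraries. The 3 iHoxc9 libraries lie at 3.38 to 4.19 CPM for Fgf10, above all others, and Fgf15 is near 0 in iHoxc9 and at 4.19 CPM or more on day 2.

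Of the homologous factors, Fgf14 was higher in iHoxc9 and Fgf13 in iHoxc10. Fgf14 stood at 3.36, 4.86 and 4.22 CPM in iHoxc9 against 1.73, 0.886 and 0.599 CPM in control (log2 fold change 1.93, SE 0.34, adjusted p = 0.000212). In iHoxc8 and iHoxc10 its log2 fold changes were 1.05 (adjusted p = 0.0597) and 1.19 (adjusted p = 0.0132). In iHoxc10 Fgf14 was called higher by DESeq2's test (adjusted p = 0.00544) and without control replicate 1 (0.00187). iHoxc9 against iHoxc10 did not pass (0.74, adjusted p = 0.181). Exons of Fgf14 overlap the antisense Gm28932, so reads could be shared. Fgf13 stood at 48.2, 46.1 and 39.4 CPM in iHoxc10 against 29.9, 24.2 and 21.3 CPM in control (0.83, SE 0.14, adjusted p = 0.000203). In iHoxc6 neurons Fgf13 stood at 18.1, 18.5 and 16.8 CPM and was not called by edgeR (-0.50, adjusted p = 0.0548), while DESeq2's test called it lower (adjusted p = 0.00488). It was not called against control in the remaining lines, at 33.04, 33.8 and 31.7 CPM in iHoxc8 and 34.6, 31.9 and 34.7 CPM in iHoxc9. Thus all 3 iHoxc6 libraries lay below, and all 9 libraries of the other lines above, every control library. iHoxc9 against iHoxc10 did not pass for Fgf13 (-0.40, adjusted p = 0.0848), but was called by DESeq2's test (0.00962) and in the fit of these 2 groups alone (0.00524). Fgf11 and Fgf12 were not called in any line, with means of 2.69 to 3.52 CPM and 3.49 to 4.43 CPM.

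Of the receptors, Fgfr1, which transmits signals of many of the canonical ligands, was the single one called against control, in iHoxc9 (134 ± 6.03 against 89.2 ± 13.1 CPM, log2 fold change 0.59, SE 0.13, adjusted p = 0.00185). The Fgfr1 call was not kept without control replicate 1 (adjusted p = 0.0133), control replicate 3 (0.0207), iHoxc9 replicate 1 (0.0125) or iHoxc9 replicate 3 (0.0107), nor in the fit of these 2 groups alone (0.0101). Per kilobase of exon, Fgfr1 at 13.6 CPM per kb came after Fgfrl1 (16.9) and before Fgfr3 (11.6) in iHoxc9 neurons.

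Fgfr4 stood at 1.45, 1.62 and 1.47 CPM in iHoxc9 and at 4.20, 4.66 and 3.93 CPM in iHoxc10 (log2 fold change -1.49, SE 0.30, adjusted p = 0.00202). The groups did not overlap, but without iHoxc9 replicate 1 or replicate 3 the Fgfr4 difference was not called (adjusted p = 0.0114 and 0.0105). Fgfr4 in the 3 control libraries, at 1.80, 4.70 and 1.95 CPM, lay above every iHoxc9 library and overlapped iHoxc10. iHoxc9 was not called against control for Fgfr4 (-0.88, adjusted p = 0.0407). Without control replicate 2 that log2 fold change was -0.30 (adjusted p = 0.438). iHoxc6 neurons gave 6.24, 5.70 and 5.94 CPM and iHoxc8 neurons 5.29, 4.34 and 5.44 CPM. Neither was called against all 3 control libraries (adjusted p = 0.0393 and 0.0678). Without control replicate 2 Fgfr4 was called higher in iHoxc6 (1.67, adjusted p = 0.000596), iHoxc8 (1.43, adjusted p = 0.000846) and iHoxc10 (1.19, adjusted p = 0.00125). Fgfrl1 was higher in iHoxc9 than in iHoxc10 (47.0 against 30.5 CPM, 0.62, SE 0.14, adjusted p = 0.00562), and this call was not kept when any 1 of the 6 libraries was left out (adjusted p from 0.013 to 0.0481). Fgfr2 and Fgfr3 were not called in any of these comparisons. In the fit of iHoxc9 and iHoxc10 alone, however, edgeR called Fgfr2 higher in iHoxc9 (0.52, adjusted p = 0.00066).

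Dusp6 was the feedback gene with the clearest difference. It stood at 14.9, 12.5 and 11.7 CPM in iHoxc9, at 22.8, 20.9 and 25.0 CPM in iHoxc10 and at 37.6, 45.2 and 41.7 CPM in control. The 3 groups did not overlap, and the iHoxc9 libraries overlapped the 7.65 to 12.9 CPM of day 2 progenitors. Dusp6 was 3.18-fold lower in iHoxc9 than in control (log2 fold change -1.67, SE 0.16, adjusted p = 1.1e-07) and 1.81-fold lower in iHoxc10 (-0.85, SE 0.16, adjusted p = 0.000467). Within the run it was lower in iHoxc9 than in iHoxc10 (-0.81, SE 0.16, adjusted p = 0.00173), which was not kept without iHoxc9 replicate 2 (0.0139) or replicate 3 (0.0121). iHoxc6 neurons at 31.7, 25.6 and 29.2 CPM and iHoxc8 neurons at 35.8, 31.2 and 35.5 CPM were also below every control library but were not called for Dusp6 (-0.52, adjusted p = 0.0664, and -0.28, adjusted p = 0.304).

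Among the Sprouty genes, Spry2 moved against Dusp6. It was higher in iHoxc9, at 20.6, 17.5 and 18.5 CPM, than in control at 10.2, 11.5 and 13.6 CPM (log2 fold change 0.68, SE 0.15, adjusted p = 0.00201) and than in iHoxc10 at 9.94, 11.5 and 9.16 CPM (0.89, SE 0.15, adjusted p = 0.000345). The call of Spry2 against control was not kept without control replicate 1 (0.0161), iHoxc9 replicate 1 (0.0174) or iHoxc9 replicate 3 (0.0117). Spry1 in iHoxc9 against control moved with Dusp6 but was not called (-0.46, adjusted p = 0.0467). Its iHoxc9 libraries at 4.46, 5.44 and 5.29 CPM lay below those of control at 6.36, 6.62 and 7.93 CPM. Spry1 was lower in iHoxc9 (5.07 CPM) than in iHoxc10 (8.12 CPM, -0.68, SE 0.16, adjusted p = 0.00905). The replicate numbers of these lines were taken to pair the libraries, but the replicate block was a term shared by all groups. With this block the Spry1 call was not kept (adjusted p = 0.0106). It was also not kept without any 1 of iHoxc9 replicates 1 (0.07), 2 and 3 (both 0.0237) or iHoxc10 replicates 1 (0.0529) and 2 (0.031). Spry1 exons overlap those of the antisense Gm42922. Spry4, at 2.38 to 3.64 CPM in the mean of the 4 lines, was not called in any of them.

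Of the Spred genes, Spred1 was higher in iHoxc9 than in control (37.5 against 23.98 CPM, log2 fold change 0.65, SE 0.15, adjusted p = 0.00366). That Spred1 call was not kept without control replicate 1 (0.0126), control replicate 3 (0.0442) or iHoxc9 replicate 1 (0.0296), nor in the fit of these 2 groups alone (0.0107). In iHoxc8 neurons Spred1 stood at 35.7 CPM and was not called (0.57, adjusted p = 0.0243). It was called higher there without control replicate 2 (adjusted p = 0.00535), without iHoxc8 replicate 2 (0.00646) and by DESeq2's test (0.00729). Between iHoxc9 and iHoxc10 Spred1 was not called (0.461), except in the edgeR fit of those 2 groups alone (0.425, adjusted p = 0.00901). Spred2 was not called in any line, and without control replicate 2 it was called higher in iHoxc9 (0.64, adjusted p = 0.00333). Spred3 was at 47.5 to 56.6 CPM in the mean of the 4 lines and 54.2 CPM in control, and was not called in any of them. The summed level of the 7 inhibitors was 165 ± 9.29 CPM in control and 157 ± 8.62 CPM in iHoxc9.

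**Figure D5:**
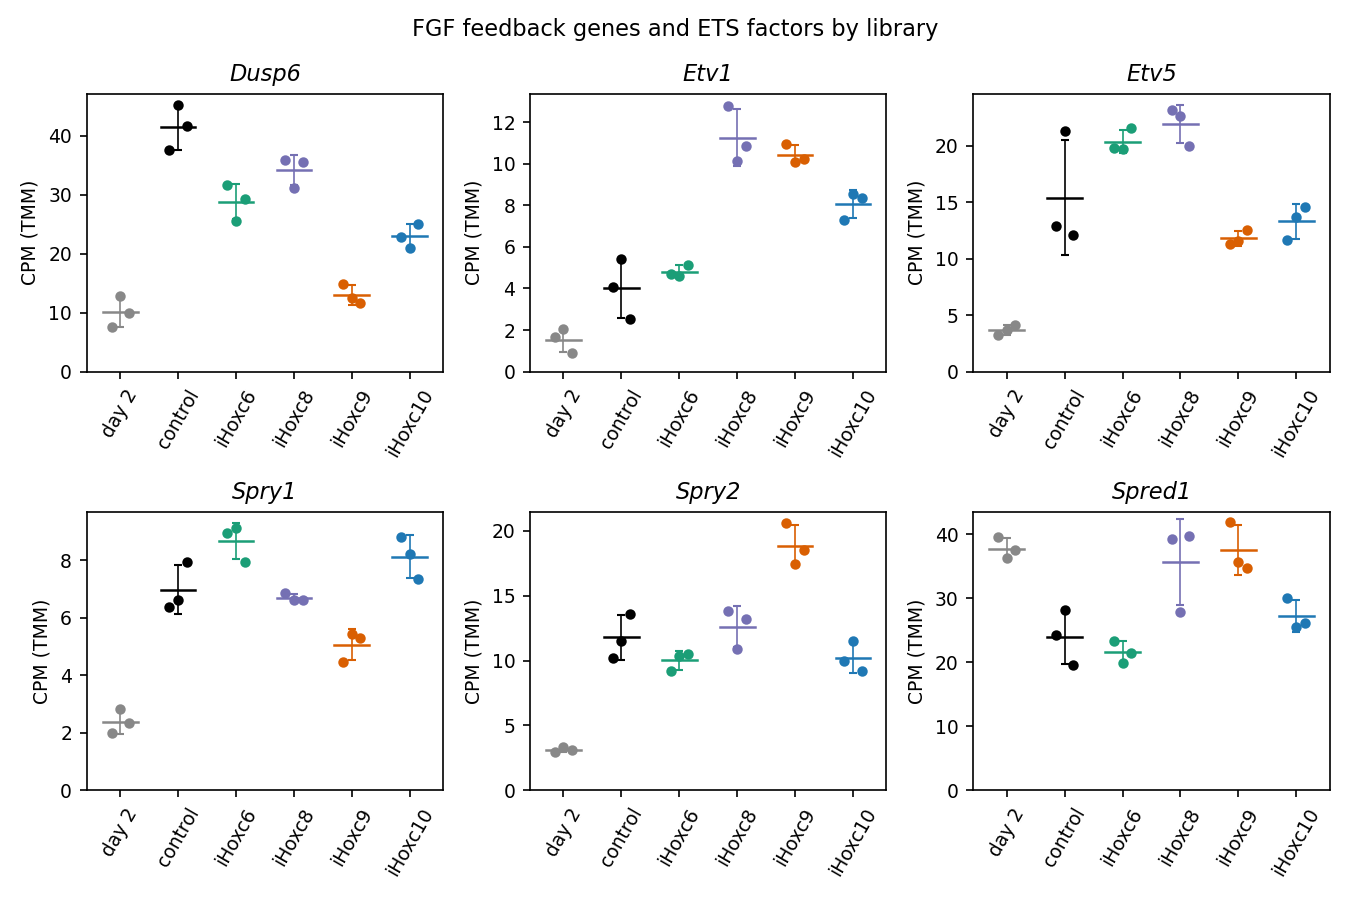
CPM (TMM) of 4 feedback inhibitors (Dusp6, Spry1, Spry2, Spred1) and the ETS factors Etv1 and Etv5 in every library. Points are libraries, horizontal lines are group means and bars are 1 SD over 3 libraries. Dusp6 in iHoxc9 lies at 11.7 to 14.9 CPM, below control at 37.6 to 45.2 CPM, while Spry2 and Etv1 lie above control in iHoxc9.

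Etv1 was the single member called in 3 induced lines. Control libraries were at 4.05, 5.43 and 2.55 CPM. iHoxc8 neurons stood at 12.8, 10.1 and 10.9 CPM (log2 fold change 1.49, SE 0.23, adjusted p = 0.000663), iHoxc9 neurons at 11.0, 10.1 and 10.2 CPM (1.38, SE 0.24, adjusted p = 0.00017) and iHoxc10 neurons at 7.28, 8.53 and 8.35 CPM (1.01, SE 0.24, adjusted p = 0.00305). All 9 libraries lay above the 3 control libraries. iHoxc6 neurons, at 4.71, 4.57 and 5.14 CPM, fell inside the range of control (0.26, adjusted p = 0.571). The iHoxc10 call of Etv1 was not kept without control replicate 1 (0.0117), control replicate 3 (0.0255) or iHoxc10 replicate 2 (0.0148). iHoxc9 and iHoxc10 did not differ past the threshold (0.37).

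Etv5 was not called in any line. iHoxc6 neurons stood at 19.8, 19.7 and 21.5 CPM and iHoxc8 neurons at 23.1, 22.6 and 20.0 CPM. iHoxc9 neurons stood at 11.3, 11.5 and 12.6 CPM and iHoxc10 neurons at 11.6, 13.7 and 14.6 CPM, around control replicates 1 and 3 at 12.9 and 12.1 CPM. Control replicate 2 was at 21.3 CPM. Without it Etv5 was called higher in iHoxc6 (0.70, adjusted p = 0.00449) and in iHoxc8 (0.81, adjusted p = 0.00119).

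The remaining 13 members were under 1 CPM in the mean of every group. They were the canonical ligands Fgf1, Fgf2, Fgf3, Fgf4, Fgf6, Fgf7, Fgf8, Fgf16, Fgf17, Fgf20 and Fgf22 and the hormone-like ligands Fgf21 and Fgf23. Fgf6 and Fgf20 had 0 reads in all 18 libraries, which allows a level of up to 0.0883 to 0.1215 CPM. Fgf8, a signal of the caudal embryo, had at most 2 reads in any library. None of the 9 tested genes among them was called in any comparison. Fgf3, singled out after its values were seen, was at 0.0391, 0.0589 and 0 CPM in iHoxc9 and 0.280, 0.215 and 0.243 CPM in iHoxc10. Against 3 counts per library it was at least 2.27-fold lower in iHoxc9 (adjusted p = 0.0118).

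Of the 50 other genes of the pathway that are not members (cofactors, adaptors, kinases, heparan sulfate enzymes and further targets), 49 were tested. Against control, 13 (26.5%, against 14.1% of all genes) were called in iHoxc9, 10 higher and 3 lower. In iHoxc10, 4 (8.16%, against 14.4%) were called, 3 higher and 1 lower. In iHoxc6 there was 1 (2.04%, against 0.587%), lower. In iHoxc8 edgeR called 0 (against 2.12%), 14 had an unadjusted p under 0.05, and DESeq2's test called 2. From day 2 to control 22 (44.9%, against 42.4%) were called, 14 higher and 8 lower, and between iHoxc9 and iHoxc10 there were 3 (6.12%, against 4.99%), 2 higher and 1 lower in iHoxc9. These counts moved with single libraries. Without control replicate 2 they were 18 in iHoxc9, 8 in iHoxc10, 4 in iHoxc6 and 2 in iHoxc8. In iHoxc9 they were 7 without control replicate 1, 5 without control replicate 3, 6 without iHoxc9 replicate 1 and 8 without iHoxc9 replicate 3. In iHoxc10 there were 2 without control replicate 3, and in iHoxc8 there were 2 without iHoxc8 replicate 2.

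The ETS gene Etv4, related to Etv1 and Etv5, went from 0.512 CPM on day 2 to 9.87 CPM in control (log2 fold change 4.26, SE 0.25, adjusted p = 1.77e-12) and was lower in iHoxc9, at 3.91 CPM (-1.34, SE 0.20, adjusted p = 3.61e-05). Il17rd, which encodes the feedback inhibitor Sef, stood at 52.8, 48.0 and 50.6 CPM in iHoxc9 against 18.3, 27.5 and 23.8 CPM in control (1.12, SE 0.18, adjusted p = 0.000115). It was also higher in iHoxc9 than in iHoxc10 (1.26, adjusted p = 5.76e-05) and in control than on day 2 (2.72, adjusted p = 1.4e-10). In iHoxc9 against control, Dusp6 and Etv4 were thus lower while Il17rd, Spry2, Spred1 and Etv1 were higher.

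The membrane proteins of the Flrt family can bind FGF receptors. Flrt2 was higher in iHoxc9 (8.76 CPM) than in control (2.25 CPM, log2 fold change 1.95, SE 0.27, adjusted p = 1.69e-05) and than in iHoxc10 (2.93 CPM, 1.57, adjusted p = 0.000345). Flrt3 fell from 27.7 CPM on day 2 to 5.79 CPM in control (adjusted p = 7.41e-09) and was the one pathway gene outside the members called in iHoxc6, at 2.48 CPM (adjusted p = 0.0044). Without control replicate 1, or without any 1 iHoxc6 library, 0 of these genes were called there by edgeR (11 had an unadjusted p under 0.05 with all libraries, and DESeq2's test called 3). Kl, the coreceptor Klotho of hormone-like FGFs, was near the 3-count level throughout. Against 3 counts per library it was at least 1.74-fold lower in iHoxc9 than in control and at least 1.93-fold higher in control than on day 2 (adjusted p = 0.00431 and 0.00312).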

How the data were processed

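RNA-seq read counts of 18 libraries were analyzed. The authors mapped the reads to mm10 with STAR (2.7.0c), assigned them to RefSeq genes by featureCounts, and deposited raw counts per Entrez gene for each replicate. The kit was stranded, but the strand setting of the counting was not given in the sources used here. Of the 27179 identifiers, 25275 matched a symbol. Members and lists were chosen with earlier results of these data known.

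Counts were tested in R 4.3.3 with edgeR 4.0.16 (TMM factors, group as the single term, all libraries fitted together, quasi-likelihood test, Benjamini-Hochberg adjustment), over genes that had 1 count or more in an iHox library. DESeq2 (1.42.0) was an alternative. Others were DESeq2's size factors in edgeR, no filter, at least 10 counts in 3 libraries, the study's added fold threshold, a block for the replicate number, a fit restricted to the groups at issue, and leaving out single libraries. The SE was taken from the F statistic. Where no library of a group passed 3 counts, the fold was set against 3 counts as a lower bound.

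Members called in any comparison or with a mean of at least 1 CPM in any group are named, with values per library for those past the fold threshold and for other called members where useful. Other pathway genes are named when called with an absolute log2 fold change above 1 in at least 2 comparisons. Exon lengths and coordinates are from GENCODE on GRCm38, the assembly of mm10.

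The labels number the libraries of each group from 1 to 3. Correlations of deviations from the group means between libraries with the same number were 0.162, 0.177 and 0.211 for iHoxc9 with iHoxc10, over 0.1 in each pair, which was taken as pairing. Libraries with different numbers were not compared in this way, so these values cannot show whether the numbers pair the libraries. The replicate block was fitted over all groups at once. The study describes the libraries as independent differentiations. On simulated counts of 20605 genes in which 200 differed between iHoxc9 and control with a log2 fold change of 3, edgeR recovered 100% with 2 other calls. No smaller change was simulated, so the recovery of smaller changes is not known. No column of counts was left unused.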

Additional observations from a re-analysis of the deposited data

Results flagged for a closer look

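The effects of the posterior Hox genes on Fgf10 differed between the lines. The direct contrast of iHoxc9 with iHoxc10, which is also the difference of their effects against the shared control, was 2.87 on the log2 scale (SE 0.33, adjusted p = 2.22e-06, edgeR). All 3 iHoxc9 libraries (3.38 to 4.19 CPM) lay above all 3 iHoxc10 libraries (0.358 to 0.700 CPM). Both lines were sequenced in the same run, but they are different lines, and line and Hox gene cannot be told apart. Hoxc6 RNA was also higher in iHoxc10 than in iHoxc9 neurons. Groups of 3 libraries were not tested for outliers.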

How the results depend on the processing

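Counts of called members moved by more than 1.5 times under several alternatives. Leaving out single libraries did not move them that far in iHoxc10 or for control against day 2. With the added threshold of an absolute log2 fold change above 2, they were 0 in iHoxc8 (1 as reported), 2 in iHoxc9 (9), 0 in iHoxc10 (3), 10 for control against day 2 (19) and 1 for iHoxc9 against iHoxc10 (6). With DESeq2's Wald test they were 2 in iHoxc6 (0), 2 in iHoxc8 and 5 in iHoxc10. Leaving out 1 library at a time gave 0 to 2 in iHoxc6, 1 to 4 in iHoxc8, 5 to 10 in iHoxc9, 2 to 4 in iHoxc10, 18 to 19 for control against day 2 and 2 to 5 for iHoxc9 against iHoxc10, with the highest values in iHoxc6 and iHoxc8 coming without control replicate 2 and the lowest in iHoxc9 coming without iHoxc9 replicate 1. Of 138 values of named members by comparison, 38 were called, 26 of these under every alternative that gave a value, 12 were lost under at least 1, 15 others were gained under at least 1, and 0 changed direction while called.

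For the comparisons other than iHoxc9 with iHoxc10, the replicate numbers were not taken to pair the libraries (correlations of -0.229 to 0.129). With the replicate block the member counts were 0 in iHoxc6, 1 in iHoxc8, 9 in iHoxc9, 4 in iHoxc10 (Fgf9 added, adjusted p = 0.00605), 18 for control against day 2 (Fgf5 lost, adjusted p = 0.0125) and 5 for iHoxc9 against iHoxc10 (Spry1 lost), and no other call changed. A level under 3 counts, 0.0883 to 0.1215 CPM, could not be measured at this depth.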
